A study of Homo sapiens with 4 samples.

Results

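The zinc finger genes of the 19q13.4 cluster, on the long arm of human chromosome 19, were described in 2 neuroendocrine tumour cell lines with and without knockdown of DAXX. The cluster was given as 38 gene symbols, and a gene entered when the array platform's annotation gave its symbol alone to a probe set. Where a gene had several probe sets, the brightest by its mean across the 4 arrays stood for it. In this way 32 of the 38 genes were measured, of 19775 measured genes in all. The other 6 (ZNF321P, ZNF525, ZNF761, ZNF816, ZNF841 and ZNF845) had no probe set of their own in the annotation and were not analysed here.

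The genes of this cluster encode proteins with tandem C2H2 zinc fingers, each finger a small fold around a zinc ion that reads a few bases of DNA. Many carry a KRAB domain at the amino terminus, which recruits the corepressor TRIM28 and through it the H3K9 methyltransferase SETDB1 and HP1 proteins, so that the bound DNA, often a transposable element, is packed into silent chromatin. The genes arose by tandem duplication, and neighbours are close relatives in sequence. DAXX, the gene targeted by the siRNA, is a chaperone that works with ATRX to place histone H3.3 in such silent chromatin.

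Total RNA was hybridised to 4 one-colour Affymetrix arrays, 1 for each of 4 samples, and the values are log2 RMA expression. The groups were NCI-H727 cells with siRNA against DAXX, NCI-H727 cells with negative control siRNA, QGP1 cells with siRNA against DAXX, and QGP1 cells with negative control siRNA. All 4 were electroporated with siRNA at 50 nM, and the labels name a pair of DAXX siRNAs without saying whether they were pooled. NCI-H727 is known as a line from a bronchial neuroendocrine tumour and QGP1 as a line from a pancreatic one. Each group had 1 array, so the groups had no replicate. In the fit of cell line and treatment, the spread behind a p-value is how far the knockdown difference varied between the 2 lines. That spread is pooled in part over all genes tested and is not one between repeat arrays. In a fit of cell line alone it is the spread between arrays of a line, which differ in treatment.

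The line names rest on the sample titles, because other label fields of the NCI-H727 samples, their source and description, call them QGP1. All 9 measured neuroendocrine markers lay above the filter level of 4.85 in every array, as did EPCAM, CDH1, KRT8 and KRT18. The lung transcription factor NKX2-1 went against the titles, with 3.23 and 3.35 in the NCI-H727 arrays against 8.38 and 8.77 in the QGP1 arrays. GRP, the gastrin-releasing peptide of lung neuroendocrine cells, stood at 4.12 and 5.37 in the NCI-H727 arrays against 11.8 and 12.8 in the QGP1 arrays. NKX2-2, an islet transcription factor, had 9.25 and 9.17 in the NCI-H727 arrays against 5.93 and 4.80 in the QGP1 arrays. In what follows, NCI-H727 and QGP1 therefore mean the arrays labelled so. The other islet and foregut markers were mixed. PDX1 went the way of NKX2-2 by a small margin, with 5.43 and 5.54 in NCI-H727 against 5.23 and 5.30 in QGP1. MNX1 overlapped between lines (8.72 and 8.82 against 9.03 and 8.54). SST, somatostatin, had 11.8 and 11.9 in NCI-H727 against 13.1 and 13.8 in QGP1, and the transcription factors ISL1 (8.94 and 8.82 against 9.46 and 9.61) and PAX6 (5.67 and 5.12 against 6.77 and 6.64) also read higher in QGP1. Above the filter level in both arrays of a line were 3 of 6 lung and bronchial markers in NCI-H727 and 5 of 6 in QGP1, and 6 of 6 islet and foregut markers in NCI-H727 and 5 of 6 in QGP1. PTPRC of leukocytes, CDH5 of endothelium and the fibroblast genes COL1A2 and COL3A1 were under the filter level in all 4 arrays, and the other 3 of 5 fibroblast markers were above it in all 4. PECAM1 (5.43 to 6.80) and VWF (4.92 to 5.31) of endothelium and CD3E of leukocytes (4.92 to 5.36) were above it in all 4 arrays, and CD14 in the NCI-H727 arrays. Any part of such cells in the results was not tested.

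Most promoters of the cluster shared a short stretch of sequence at the start of the gene. RefSeq promoter windows (GRCh38.p14, 250 bases before to 50 bases after a gene's start) were found for 30 of the 38 genes. The letters CCGGAAG, which contain the core that transcription factors of the ETS family bind, occurred on the coding strand in 20 of these 30 genes, and the reverse complement occurred in 0 of them. Among all 27305 genes with a window, 6.82% held the letters on the coding strand and 6.56% held the reverse complement. This and the other promoter motifs were chosen after the windows were read, so a high share in the cluster follows in part from that choice. Neighbours in the cluster are close relatives in sequence, so the genes that hold the letters are not independent of each other. In 16 of the 20 genes the letters began within 20 bases after the start, and in 10 of them at base 5 of the transcript. The lines below, with CCGGAAG in capitals, show the 6 measured holders with the largest differences between lines, ZNF766 and ZNF765 with small ones, and ZNF611 and ZNF808 as an identical pair, so that the shared stretch can be set beside the expression values.
ZNF880: tcctggagacCCGGAAGcagattacgtgga
ZNF813: tcgcgaaaacCCGGAAGcggatcgcgtgga
ZNF320: tggcatagacCCGGAAGcggatggcaggga
ZNF528: tcgtgcaaacCCGGAAGcggaccgcggggg
ZNF347: ttctgcagttCCGGAAGcggatcgtgttgg
ZNF83: gcgcgcaaacCCGGAAGcggattatgtgga
ZNF611: taacgcaaacCCGGAAGcggatcgggtgga
ZNF808: taacgcaaacCCGGAAGcggatcgggtgga
ZNF766: gcctgcagacCCGGAAGtggatggcgtgga
ZNF765: tcgcgcagacCCGGAAGcggacggcgtgga

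On GRCh38.p14 the printed bases of ZNF880 are chr19:52369927-52369956, those of ZNF813 chr19:53467739-53467768 and those of ZNF528 chr19:52397802-52397831, all on the plus strand. The plus strand also carries ZNF808 at chr19:52527662-52527691, ZNF766 at chr19:52269581-52269610 and ZNF765 at chr19:53395143-53395172. On the minus strand lie ZNF320 at chr19:52897669-52897698, ZNF347 at chr19:53159030-53159059, ZNF83 at chr19:52638332-52638361 and ZNF611 at chr19:52735021-52735050. The 30 bases of ZNF611 and ZNF808 were identical. The bases ACCCGGAAG were held by 16 genes of the cluster and by 0.7% of all genes. ZNF415, ZNF331 and ZNF468 had a window without CCGGAAG.

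Zinc finger genes elsewhere had these letters in another share or on the other strand. In the 19p12 cluster, on the short arm of the same chromosome, CCGGAAG was on the coding strand in 1 of 25 genes and the reverse complement in 17 of 25. Of the other 162 ZNF genes of chromosome 19 with a window, 16% held CCGGAAG and 27.8% held its reverse complement. The reverse complement of GGGCGG, the letters of a GC box, occurred in 24 of the 30 genes of the 19q13.4 cluster and in 31.7% of all genes, and GGGCGG itself in 4 of 30 and in 33.9%. TATAAA occurred in 0 of 30 on the coding strand, with its reverse complement in 1 of 30, against 8.99% and 7.17% of all genes. TGACGTCA, the cyclic AMP response element, equals its own reverse complement and occurred in 0 of 30, against 2.25% of all genes. These 4 motifs were searched on both strands, and none is contained in another. The windows were rich in CG dinucleotides, with a median of 25 in the genes of the cluster against 16 over all genes, taking the richest window of a gene.

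Genes with and without the letters had like medians between lines and overlapping ranges. The 16 measured genes that hold CCGGAAG had a median NCI-H727 minus QGP1 difference of 0.32, from -4.12 in ZNF880 to 1.71 in ZNF813. The 9 measured genes with a window without it also had a median of 0.32, from -0.76 in ZNF614 to 5.16 in ZNF415. Measured genes with no window are in neither group, namely ZNF702P (3.48), ZNF610 (2.29), ZNF649 (-1.49), ZNF665 (1.26), ZNF600 (0.95), ZNF480 (-0.23) and ZNF28 (0.03). These are descriptions with no test.

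DAXX, the targeted gene, had less signal after its siRNA in NCI-H727 and in QGP1. Its level was 6.14 in DAXX-KD NCI-H727, against 7.35 in control NCI-H727, which leaves 43.3% of the control signal. In QGP1 it was 6.56 in the DAXX-KD array against 8.52 in the control array, leaving 25.7%.

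Of the 32 measured genes of the cluster, 24 passed the filter, which kept genes whose mean over the 4 arrays was at or above the 40th percentile of all probe sets. ZNF28, ZNF577, ZNF578 and ZNF677 were under the filter level in all 4 arrays, between 2.77 for ZNF28 in control QGP1 and 4.65 for ZNF577 in control NCI-H727. ZNF677 is known as a gene silenced by promoter methylation in lung tumours, and its probe set read 3.65 and 3.37 in NCI-H727 against 3.42 and 3.47 in QGP1. ZNF610, ZNF613, ZNF649 and ZNF808 were also under the filter by their mean, with at least 1 array above the filter level.

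**Figure D1:**
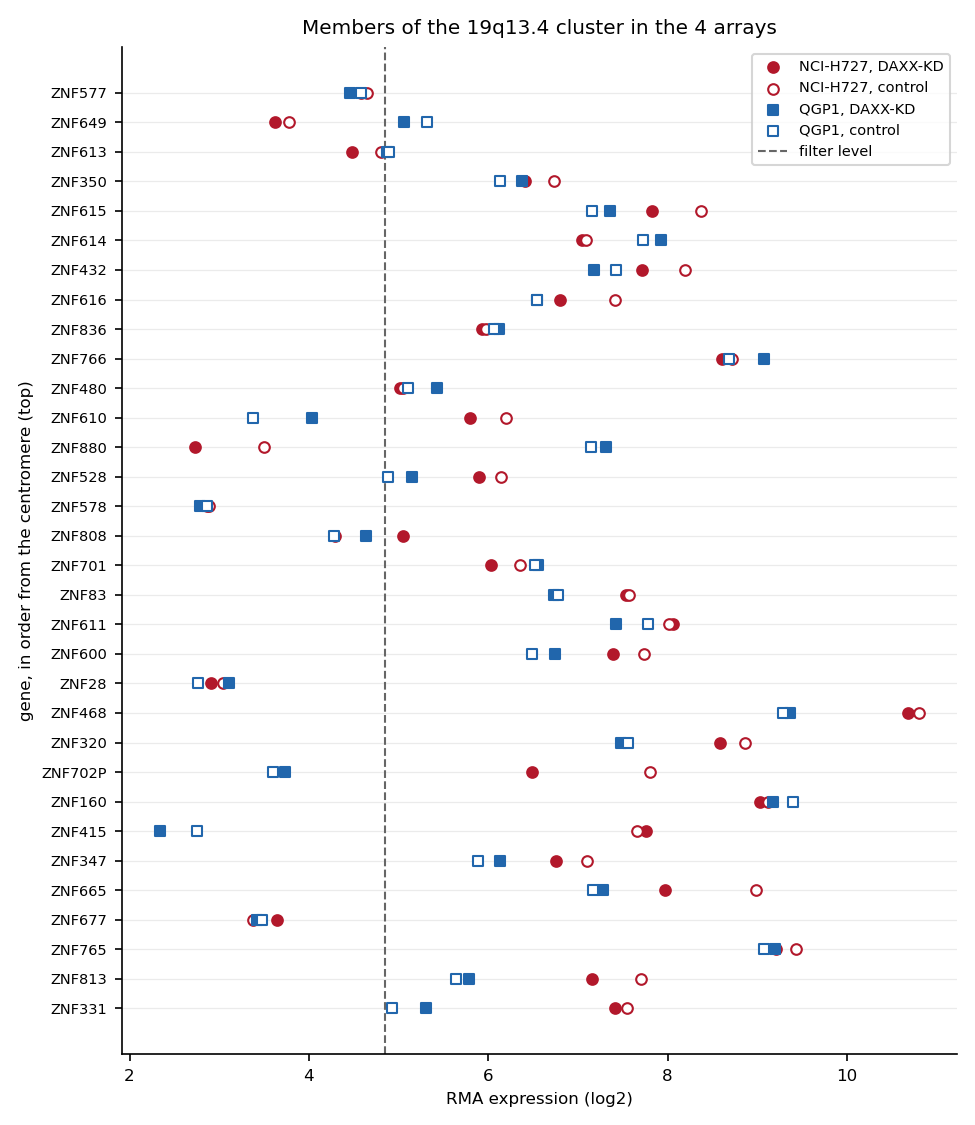
RMA expression (log2, horizontal axis) of the 32 measured genes in each of the 4 arrays, 1 point per array, with genes in chromosome order from the centromere at the top and the filter level of 4.85 as a dashed line. ZNF415 and ZNF702P have both NCI-H727 points well to the right of both QGP1 points, and ZNF880 the reverse.

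The cluster differed strongly between the lines, and mostly in the direction of higher signal in NCI-H727. In the limma fit of cell line and treatment over 14648 genes, 13 of the 24 genes past the filter were higher in NCI-H727 and 2 were lower at a Benjamini-Hochberg adjusted p of 0.05. Over all genes tested, 23.2% were called higher and 25.1% lower, or 48.3% in either direction, so calls between these lines are common. ZNF415, ZNF702P and ZNF880 passed the filter only through the arrays of 1 line, so their calls follow in part from the filter. Over all 32 measured genes with no filter, both NCI-H727 arrays lay above both QGP1 arrays in 19 genes (38.6% of all measured genes) and below them in 8 (31% of all measured genes). The median difference of the 32 was 0.38 on the log2 scale, against 0.06 over all measured genes, and it was 0.16 over the genes left without x_at or s_at probe sets. Without the control QGP1 array, in a fit of cell line alone, 8 genes were called higher in place of 13.

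ZNF415, a KRAB zinc finger gene, showed the widest gap of the cluster. It had 7.76 in DAXX-KD and 7.66 in control NCI-H727, against 2.34 in DAXX-KD and 2.75 in control QGP1. A fold is not given, since both QGP1 values lay under the filter level. The difference was 5.16 (SE 0.17, limma adjusted p = 3.3e-05). ZNF415 was tested only because its NCI-H727 values lifted its mean past the filter. In the fit with no filter its limma adjusted p was 8.3e-05.

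ZNF702P, annotated as a transcribed pseudogene, followed with 6.49 in DAXX-KD and 7.80 in control NCI-H727, against 3.73 and 3.60 in QGP1. Its difference was 3.48 (SE 0.34, limma adjusted p = 0.00103), again with both QGP1 values under the filter level. It too passed the filter only through the NCI-H727 arrays (limma adjusted p = 0.00194 with no filter).

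ZNF331, an imprinted gene at the telomeric end of the cluster, had 7.41 and 7.54 in DAXX-KD and control NCI-H727, against 5.30 and 4.93 in QGP1. That was a difference of 2.36 (SE 0.17, limma adjusted p = 0.00036), or 5.14-fold. Its other probe set had 6.25 and 6.76 in NCI-H727 against 5.43 and 5.21 in QGP1, a difference of 1.18. The arrays of the lines did not overlap at either probe set.

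ZNF813, the measured gene next to ZNF331 in chromosome order, had 7.15 in DAXX-KD and 7.70 in control NCI-H727, against 5.79 and 5.65 in QGP1. The difference was 1.71 (SE 0.20, limma adjusted p = 0.00175), or 3.27-fold. ZNF468 had 10.7 and 10.8 in NCI-H727 against 9.36 and 9.29 in QGP1, 2.68-fold higher (limma adjusted p = 0.000925). In both genes the QGP1 arrays stood close together and well below the NCI-H727 arrays.

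ZNF665 had 7.98 in DAXX-KD and 8.99 in control NCI-H727, against 7.28 and 7.17 in QGP1, which was 2.39-fold higher (limma adjusted p = 0.0161). The NCI-H727 arrays of this gene differed from each other by more than those of most genes of the cluster, as described for the knockdown below. ZNF320 had 8.59 and 8.86 in NCI-H727 against 7.48 and 7.56 in QGP1, a 2.31-fold difference (limma adjusted p = 0.00157). A further ZNF320 probe set with the x_at suffix differed less, by 0.35.

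ZNF528 was 2.01-fold higher in NCI-H727, with 5.90 and 6.14 there against 5.15 and 4.88 in QGP1 (limma adjusted p = 0.00632). ZNF600 had 7.39 and 7.74 in NCI-H727 against 6.75 and 6.49 in QGP1, 1.93-fold higher (limma adjusted p = 0.0101). ZNF347 had 6.76 and 7.10 in NCI-H727 against 6.13 and 5.88 in QGP1, 1.90-fold higher (limma adjusted p = 0.0104), and its second probe set differed by 0.90. The arrays of these 3 genes separated by line.

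ZNF83 had 7.53 and 7.57 in NCI-H727 against 6.73 and 6.77 in QGP1, 1.74-fold higher (limma adjusted p = 0.00515). At its other probe set the gap was far wider, with 8.09 and 7.95 in NCI-H727 against 5.14 and 5.15 in QGP1, a difference of 2.88. The direction was shared by both probe sets, but the size of the ZNF83 difference depended on which was read.

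ZNF615 had 7.83 and 8.37 in NCI-H727 against 7.36 and 7.16 in QGP1, a difference of 0.84 (limma adjusted p = 0.0224). ZNF432 had 7.72 and 8.19 in NCI-H727 against 7.18 and 7.42 in QGP1, a difference of 0.65 (limma adjusted p = 0.0131). These were the smallest differences called higher apart from ZNF83. Leaving out 1 QGP1 array ended the calls of ZNF615, ZNF432 and ZNF665 (limma adjusted p from 0.065 to 0.192). The calls of ZNF600 (0.052) and ZNF347 (0.054) were lost without the control QGP1 array, and that of ZNF432 also without the control NCI-H727 array (0.105).

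ZNF880 stood out in the other direction. It had 2.73 in DAXX-KD and 3.50 in control NCI-H727, against 7.31 and 7.15 in QGP1, a difference of -4.12 (SE 0.24, limma adjusted p = 0.000187). This gene passed the filter only through the QGP1 arrays (limma adjusted p = 0.000409 with no filter). A further ZNF880 probe set, under the filter by its mean, had 4.01 and 3.87 in NCI-H727 against 5.55 and 5.17 in QGP1. ZNF614 was the other gene called lower in NCI-H727, with 7.04 and 7.09 there against 7.92 and 7.72 in QGP1 (1.69-fold lower, limma adjusted p = 0.00818). Its second probe set past the filter differed by -0.55.

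ZNF880 lies between ZNF610 and ZNF528 in the order of the measured genes, and both of these went the opposite way. ZNF610, not tested because its mean was under the filter, had 5.79 in DAXX-KD and 6.20 in control NCI-H727, against 4.03 and 3.38 in QGP1. The difference at ZNF610 was 2.29, and its QGP1 values were under the filter level. ZNF649, near the centromeric end and also not tested, had 3.62 and 3.78 in NCI-H727 against 5.06 and 5.32 in QGP1, a difference of -1.49.

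**Figure D2:**
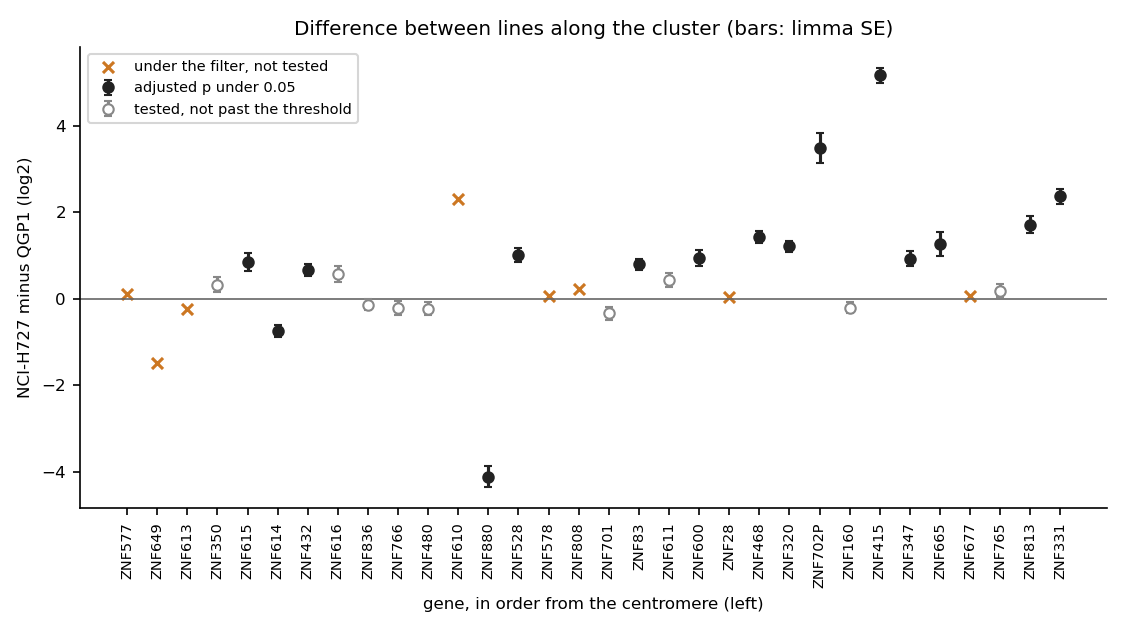
NCI-H727 minus QGP1 difference (log2, vertical axis) of each measured gene in chromosome order, with limma SE bars for tested genes; filled points passed an adjusted p of 0.05, open points did not, and crosses were under the filter. The values run from -4.12 at ZNF880 to 5.16 at ZNF415.

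The remaining 9 tested genes did not pass, with differences from -0.34 to 0.56. ZNF616 came nearest, with 6.80 and 7.42 in NCI-H727 against 6.55 and 6.55 in QGP1 (limma adjusted p = 0.0574). ZNF611 had 8.06 and 8.01 in NCI-H727 against 7.42 and 7.78 in QGP1 (limma adjusted p = 0.07). ZNF350, which encodes a repressor that partners BRCA1, had 6.41 and 6.74 in NCI-H727 against 6.38 and 6.14 in QGP1, a difference of 0.32 (SE 0.18). Both genes separated by line, ZNF350 by a narrow margin between the DAXX-KD arrays. ZNF836, with 5.94 and 5.98 in NCI-H727 against 6.12 and 6.07 in QGP1, had the smallest difference, -0.14 (SE 0.13). ZNF765 (9.21 and 9.44 in NCI-H727 against 9.20 and 9.08 in QGP1) differed by 0.18 (SE 0.15). ZNF766 (8.61 and 8.72 in NCI-H727 against 9.08 and 8.69 in QGP1) differed by -0.22 (SE 0.17) and was the 1 tested gene whose lines overlapped. A difference that misses the threshold is not shown to be 0.

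ZNF160 and ZNF701 had probe sets that disagreed in direction. ZNF160 read 9.03 and 9.13 in NCI-H727 against 9.17 and 9.40 in QGP1 at the chosen probe set, a difference of -0.21 (SE 0.13). Its second probe set past the filter had 4.79 and 5.79 in NCI-H727 against 4.92 and 4.56 in QGP1, a difference of 0.55. ZNF701 read 6.03 and 6.35 in NCI-H727 against 6.55 and 6.52 in QGP1, a difference of -0.34, and its second probe set differed by 0.04. Of the 9 additional probe sets of the cluster past the filter, 7 had the sign of the chosen one. The chosen probe sets of 10 genes carry the x_at or s_at suffix, which marks possible binding of other transcripts, so values of close relatives in this cluster may not be separate measurements. Among these genes, ZNF432, ZNF528, ZNF600, ZNF665 and ZNF808 had no other probe set.

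The telomeric part of the cluster held most of the genes that were higher in NCI-H727. Of the last 16 measured genes in chromosome order, ZNF701 to ZNF331, 14 were above 0 and 7 at least 2-fold higher, with a median difference of 0.94. Among the first 16, ZNF577 to ZNF808, 9 were above 0, with 2 genes past 2-fold in each direction and a median of 0.08. Above 0 were 56.7% of all measured genes. In the telomeric part 14 genes passed the filter, against 10 in the centromeric part. Of all measured genes, 8.5% had at least 2-fold more signal in NCI-H727 and 9.34% at least 2-fold less. The split was made after the values were seen and has no test.

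Other genes within the interval gave few values. PPP2R1A, a scaffold subunit of the phosphatase PP2A and the 1 neighbour that is no zinc finger gene and passed the filter, had 7.41 and 7.37 in NCI-H727 against 7.06 and 7.03 in QGP1, a difference of 0.35 (limma adjusted p = 0.074). The pheromone receptor-like genes VN1R2 and VN1R4 and the retroviral gene ERVV-1 stayed under the filter level in every array. Of the zinc finger pseudogenes outside the 38, ZNF137P differed by 1.87 and ZNF818P by 1.46, both called higher in NCI-H727 by limma.

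A higher signal in NCI-H727 was not particular to this cluster. In the 19p12 cluster 18 of 19 genes past the filter were called higher in NCI-H727 and 0 lower, with a median of 1.34. For the 24 genes of the 19q13.4 cluster past the filter the median was 0.73. These include ZNF415, ZNF702P and ZNF880, which passed through the arrays of 1 line only. With no filter the medians were 0.38 for the 32 measured genes and 1.12 for the 24 measured genes of the 19p12 cluster. The other 126 ZNF genes of chromosome 19 past the filter had a median of 0.14, with 36 called higher and 18 lower. The 209 ZNF genes of other chromosomes had a median of -0.23, with 23 called higher and 71 lower. All these values come from the same 4 arrays, and no test was made of the differences between lists.

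**Figure D3:**
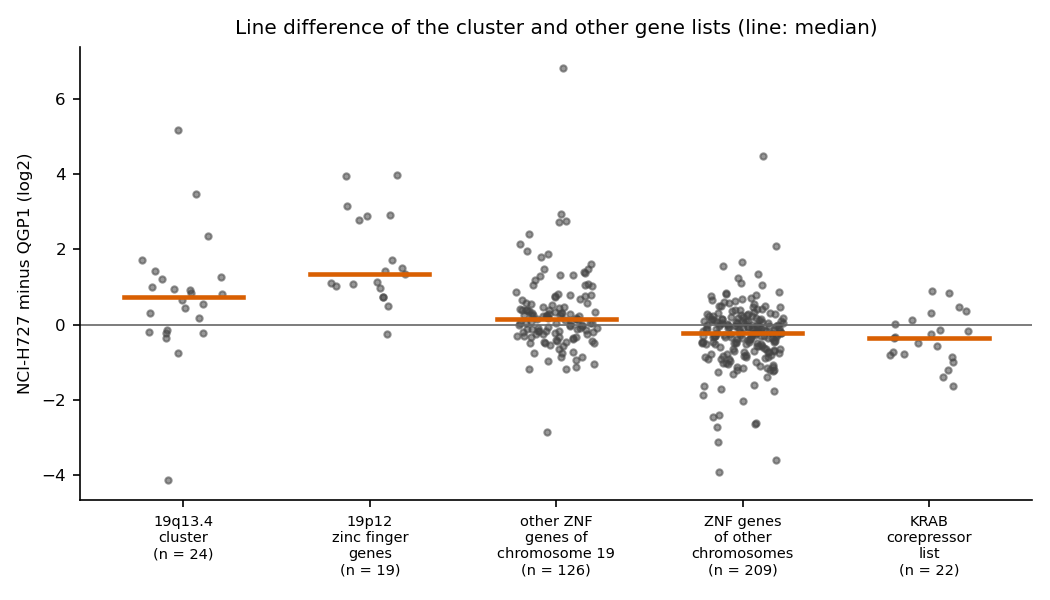
NCI-H727 minus QGP1 difference (log2, vertical axis) of genes past the filter, 1 point per gene, with the median of each list as a line. The 19q13.4 genes, at a median of 0.73, sit between the 19p12 genes, at 1.34, and the other ZNF genes of chromosome 19, at 0.14.

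Corepressors and silencing factors through which KRAB zinc finger proteins work leaned the other way between lines. Of 22 listed genes, 2 were called higher in NCI-H727 and 10 lower, DAXX itself among the 10. Over all genes tested, 23.2% were called higher and 25.1% lower, and the difference from these shares was not tested. TRIM28, which binds the KRAB domain, had 9.33 and 9.29 in NCI-H727 against 8.46 and 8.51 in QGP1, a difference of 0.83, and HDAC1, a histone deacetylase, differed by 0.88. SETDB1 had 7.24 and 7.17 in NCI-H727 against 7.80 and 7.74 in QGP1, a difference of -0.56 (limma adjusted p = 0.0167). ATRX differed by -1.62, the DNA methyltransferase DNMT3B by -1.39 and the chromatin remodeller SMARCAD1 by -1.20, all 3 called lower in NCI-H727.

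Knockdown of DAXX went with small differences in the cluster, and their signs differed between lines. In NCI-H727, 28 of the 32 measured genes were lower in the DAXX-KD array than in the control array, with a median of -0.19, while 44.7% of all measured genes were below 0. In QGP1, 20 of the 32 were higher in the DAXX-KD array and 12 lower, with a median of 0.12, while 48.4% of all measured genes were below 0. Higher in QGP1 together with lower in NCI-H727 was seen in 19 of the 32 genes (59.4%), against 22.8% of all measured genes and 58.3% of the 24 measured genes of the 19p12 cluster. With 1 array per group there is no test of either difference or of the difference between lines. With each array centred on its own median, 22 of 32 were below 0 in NCI-H727 (median -0.10) while 31.2% of all measured genes were, and 18 of 32 were above 0 in QGP1 (median 0.06) while 38.2% of all measured genes were.

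In NCI-H727, 2 genes were at least 2-fold lower, against 1.05% of all measured genes, and 0 were at least 2-fold higher, against 0.142%. ZNF702P had 6.49 in the DAXX-KD array against 7.80 in the control array, 2.48-fold lower. ZNF665 had 7.98 against 8.99, 2.02-fold lower, at its only probe set, which carries the x_at suffix. In QGP1 the same 2 genes read 3.73 in DAXX-KD against 3.60 in control for ZNF702P, under the filter level, and 7.28 against 7.17 for ZNF665. ZNF665 fell short of 2-fold after a second quantile normalization (-0.90) and after median centring (-0.92).

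Beyond 1.5-fold in NCI-H727 there were 3 more genes. ZNF616 had 6.80 in DAXX-KD against 7.42 in control, 1.54-fold lower, and its second probe set had 5.59 against 6.25. ZNF616 fell short of 1.5-fold after a second quantile normalization (-0.52) and after median centring (-0.53). ZNF880 had 2.73 against 3.50, both under the filter level, and its second probe set differed by 0.14, so the direction of ZNF880 depends on the probe set. ZNF808, a gene whose loss in humans leaves the pancreas undeveloped, had 5.05 in DAXX-KD against 4.29 in control, the control value under the filter level. At least 1.5-fold lower values were found in 3.94% of all measured genes and at least 1.5-fold higher ones in 1.57%. The knockdown difference also depended on the probe set in ZNF160. Its second probe set past the filter differed by -0.997 in NCI-H727 and 0.36 in QGP1, against -0.09 and -0.23 at the chosen one. In NCI-H727, ZNF331 differed by -0.13 at the chosen probe set and by -0.51 at its other one.

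No gene of the cluster reached 2-fold in QGP1, where 0.253% of all measured genes lay at or above 2-fold and 0.192% as far below. ZNF610 differed most, with 4.03 in DAXX-KD against 3.38 in control, a difference of 0.65 between values under the filter level. At least 1.5-fold higher values were found in 1.71% of all measured genes, and at least 1.5-fold lower ones, seen in 0 genes of the cluster, in 1.29%. ZNF415 had 2.34 in DAXX-KD against 2.75 in control QGP1, the lowest difference at -0.41, also under the filter level. ZNF766 had 9.08 against 8.69, a difference of 0.39, and ZNF331 had 5.30 against 4.93, a difference of 0.38.

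**Figure D4:**
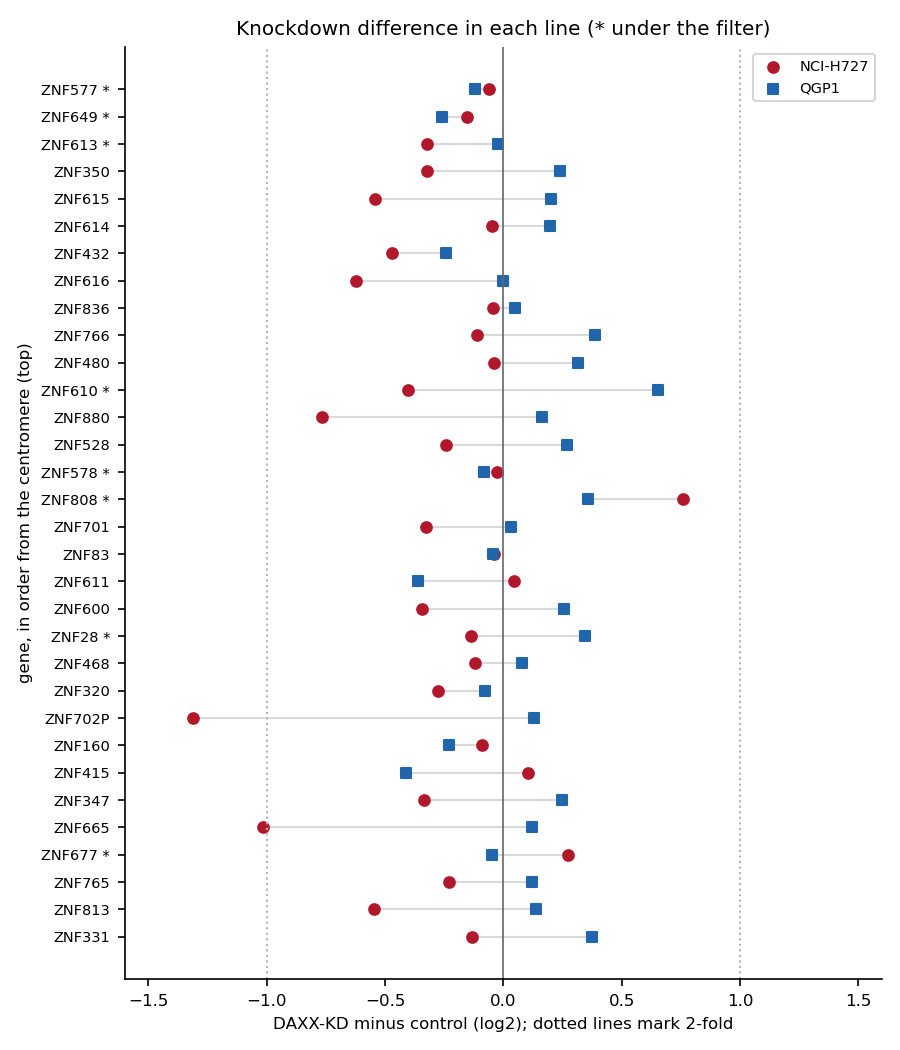
DAXX-KD minus control difference (log2, horizontal axis) of each measured gene in NCI-H727 (circles) and QGP1 (squares), with genes in chromosome order from the centromere at the top and dotted lines at 2-fold. Most circles lie left of 0, with ZNF702P at -1.31 farthest, and 20 of 32 squares lie right of 0.

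These sizes can be set beside the disagreement between probe sets and the range over all genes. Neither is a spread between repeat arrays, which this design lacks. Probe sets of the same gene disagreed with an SD of 0.28 in NCI-H727 and 0.20 in QGP1, and the central 95% of genes past the filter lay between -0.77 and 0.52 in NCI-H727 and between -0.47 and 0.52 in QGP1. Of the 24 genes of the cluster past the filter, 2 lay outside that range in NCI-H727, namely ZNF702P and ZNF665, and 0 in QGP1. In the joint limma fit of the knockdown over both lines, 0 of 24 passed, as did 0% of all genes tested. At an unadjusted p under 0.05 there was 1 gene, against 6.92% of all genes. That gene was ZNF432, which takes part in DNA repair, at -0.36 (SE 0.14, limma adjusted p = 0.714, lower in 2 of 2 lines), with 7.72 in DAXX-KD against 8.19 in control NCI-H727 and 7.18 against 7.42 in QGP1.

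The other zinc finger lists and the corepressors had smaller shares of lower genes in NCI-H727, each above the 44.7% of all measured genes. Lower in DAXX-KD NCI-H727 were 104 of the other 165 measured ZNF genes of chromosome 19 (63%). Of the 247 measured ZNF genes of other chromosomes, 156 were lower there (63.2%). In the 19p12 cluster 19 of 24 measured genes were lower in DAXX-KD NCI-H727, with a median of -0.16, and 16 of 24 were higher in DAXX-KD QGP1, with a median of 0.07. Among the 22 corepressors and silencing factors, 14 were lower in DAXX-KD NCI-H727, DAXX included, with a median of -0.06. DAXX was the 1 gene past 2-fold in either line. ATRX had 7.74 in DAXX-KD against 8.34 in control NCI-H727, 1.51-fold lower, and differed by -0.15 in QGP1. DNMT3B differed by 0.45 in NCI-H727 and 0.48 in QGP1. TRIM28 differed by 0.04 in NCI-H727 and -0.05 in QGP1, and SETDB1 by 0.07 and 0.06. The differences between these shares were not tested.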

How the data were processed

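The authors' deposited table held log2 RMA values of 54613 probe sets on 4 arrays, which the submitters' processing notes credit to affy 1.40.0 under R 3.0.3. As a method, RMA background-corrects, quantile-normalizes and summarises probe sets on the log2 scale, so a value is read against its own array, and quantile normalization removes shifts that most genes share. Probe sets with 1 symbol in the platform annotation (41091) were kept, and the 1801 with several and 11721 with none were left out. Gene order came from the RefSeq gene table of GRCh38.p14, used for order and names only.

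A gene was its probe set with the highest mean, and 14648 genes had a mean at or above the 40th percentile (4.85). limma 3.58.1 (R 4.3.3) fitted cell line and treatment on the 4 arrays, with 1 residual and 4.18 prior degrees of freedom, two-sided, with Benjamini-Hochberg adjustment over all genes tested. The script was tested on simulated data. Nothing in the labels says that arrays came from separate cultures, so p-values measure only the spread between these arrays, and precision is limited by having 4 arrays. The arrays of a line differ in treatment, which the fit takes as a term. With 1 array per group, the 1 residual degree of freedom is then the difference of the knockdown response between lines. The SEs hold that difference together with array noise. Values in every array are given for genes past a threshold, the 12 largest and 4 smallest line differences, genes past 1.5-fold in a knockdown comparison and genes whose probe sets disagree in sign. Alternatives were other filters, an intensity trend in the prior, averaged probe sets, no x_at or s_at probe sets, a second quantile normalization, median centring, fits without a term and leaving out each array. The members, lists and rules were chosen with earlier results of these data known, and the promoter motifs after the windows were read.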

Additional observations from a re-analysis of the deposited data

Results flagged for a closer look

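In 5 of the 32 measured genes the DAXX-KD minus control difference had opposite signs in the 2 lines, each larger than the SD between probe sets of a gene in that line. The same held for 5.48% of all measured genes. The SD between probe sets does not measure a spread between repeat arrays. With 1 array per group the difference between lines was not tested. ZNF610 had -0.40 in NCI-H727 and 0.65 in QGP1, a gap of -1.06 between lines, with the QGP1 values under the filter level. ZNF615 had -0.54 in NCI-H727 and 0.20 in QGP1, a gap of -0.74. The gaps of ZNF600 (-0.60), ZNF347 (-0.58) and ZNF350 (-0.56) were of like size, and each was lower in DAXX-KD NCI-H727 and higher in DAXX-KD QGP1. The second probe set of ZNF347 had -0.62 in NCI-H727 and 0.18 in QGP1.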

How the results depend on the processing

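The count of genes called between lines, 15 of 24, stayed within 1.5 times under every alternative that kept all 4 arrays. It ran from 11 of 17 tested without x_at or s_at probe sets to 17 of 32 with no filter. After a second quantile normalization it was 17 of 25, and after median centring 17 of 24. Leaving out 1 array in a fit of cell line alone gave 10 to 16 called genes, 8 to 14 called higher and 2 to 3 called lower. With the filter at the 60th percentile, 1 gene was called lower in place of 2, because ZNF880 no longer passed the filter. ZNF614 kept its call there (limma adjusted p = 0.00522). The median line difference of the measured genes was 0.16 without x_at or s_at probe sets, against 0.38. ZNF701 turned to 0.039 without those probe sets and ZNF160 to 0.12 when probe sets were averaged per gene, neither called. Of the genes past the filter, the count past 2-fold in NCI-H727 was 1 in place of 2 with the filter at the 60th percentile, without x_at or s_at probe sets, after a second quantile normalization and after median centring. At 1.5-fold it was 4, or 5 with ZNF808, which was under the filter. The median knockdown difference was -0.10 in NCI-H727 and 0.055 in QGP1 after median centring, and 0.074 in QGP1 when probe sets were averaged per gene; the cause of these shifts was not tested. The joint knockdown fit called 0 genes of the cluster under all 8 alternatives, the fit without cell line included. The joint fit, with cell line as a term, already compares DAXX-KD with control within each line, and the labels give no replicate numbers for any further pairing.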

Other observations

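There were 4 probe sets annotated to several genes, each including a gene of the cluster. They were left out above because no single gene can be named for them. The first had 5.86 in DAXX-KD and 6.49 in control NCI-H727, against 3.35 and 3.42 in QGP1, a difference between lines of 2.79. The second differed by 2.51 between lines. In the knockdown comparison of NCI-H727 these first and second probe sets were at -0.63 and -0.71. The other two differed by 0.42 and 0.41 between lines.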
